A study of Bos taurus with 9 samples.

Results

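The genes described here are 47 bovine genes of fatty acid oxidation in mitochondria and peroxisomes, of lipid droplets and of lipid synthesis. They were chosen by gene symbol, and all 47 were found among the 17852 genes of the deposited table. Of these members 44 passed the filter on low counts and were tested, against 13206 tested genes in all. RNA came from bovine oocytes at metaphase II, the stage at which the egg waits for fertilization, in 3 groups of 3 libraries. The first was labelled control, the second was exposed to microplastics, and the last was exposed to microplastics and given taurine, an amino sulfonic acid. The labels name no polymer, dose or duration and give all oocytes as female germ cells. Nothing in them ties a group's libraries to distinct animals or culture dishes, and the p-values below reflect only sample-to-sample spread, possibly technical.

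Fatty acids are activated to acyl-CoA by acyl-CoA synthetases and enter mitochondria as carnitine esters, made by CPT1 and returned to acyl-CoA by CPT2. Inside, a repeated cycle of dehydrogenase, hydratase, second dehydrogenase and thiolase shortens the chain, and the electrons of the first step pass through electron transfer flavoprotein (ETF) to the respiratory chain. Cattle oocytes are rich in lipid droplets, which are triglyceride stores coated by perilipins, and fatty acid oxidation is known as an energy source during their maturation.

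Each library held 21168652 to 22743580 estimated reads, and 3 counts, used here as a floor, were 0.132 to 0.142 CPM (counts per 1000000). Scaling mattered. The TMM factors, which correct for the composition of a library, lay at 0.835 to 0.972 for control, at 0.841 to 0.958 for taurine and, above both, at 1.214 to 1.253 for microplastics. Values below are TMM-scaled CPM unless another scale is named. Control 3 and taurine 3 stood apart from their groups. Over all tested genes the library labelled control 3 correlated at 0.976 with taurine 1 and at 0.976 with taurine 2, but at 0.962 with control 1 and 0.964 with control 2. The library labelled taurine 3 correlated at 0.977 with control 2, and at 0.951 and 0.962 with taurine 1 and taurine 2. Each thus correlated best with libraries of the other group. Whether these 2 labels were exchanged was not tested, and every control and taurine mean below, like the comparison of taurine with control, rests on the labels as given. Results are therefore also given without these libraries.

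The oocyte identity of the samples was checked against markers. The 17 oocyte markers were all tested. With microplastics 6 fell and 3 rose (NLRP5, TLE6 and ZAR1), beside 14.7% and 9.68% of all tested genes, and 8 were not called. Taurine against microplastics gave 5 rises (ZP2, MOS, BTG4, H1-8 and OOSP2) and 2 falls (NLRP5 and ZAR1), beside 10.1% and 4.13% of all tested genes. The oocyte markers summed to 34628 to 42364 CPM in microplastics libraries, against 81880.1 to 110302 (control) and 75868 to 101545 CPM (taurine). BTG4 gave a large part of that sum (59410 ± 9404 CPM in control, 19791 ± 3132 with microplastics and 52885 ± 8968 with taurine). The 17 cumulus and granulosa markers, for the somatic cells that surround an oocyte, summed to 514 to 618, 424 to 525 and 524 to 573 CPM. With microplastics 5 of the 14 tested fell (GJA1, INHA, PTGS2, SERPINE2 and VCAN) and 0 rose by edgeR, 7 passing an unadjusted p under 0.05. Of all tested genes 14.7% fell and 9.68% rose. With taurine against microplastics 4 of these markers rose (INHA, PTGS2, SERPINE2 and VCAN), beside 10.1% of all tested genes. INHA was low and uneven, at 0.748 ± 0.414 CPM in control, 0.0242 ± 0.0418 (under the floor) with microplastics and 3.43 ± 4.99 with taurine. STAR, a steroidogenic gene, gave a large part of the sum (283 ± 86.5 CPM in control, 309 ± 54.4 with microplastics and 281 ± 51.4 with taurine). Levels of the other markers differed widely. FSHR and CYP11A1, both of granulosa cells, and AMH were at or under 0.626 CPM in every group mean. In control HAS2 was at 109 ± 22, SERPINE2 at 46.1 ± 17.3 and VCAN at 45.3 ± 1.75 CPM. GJA1 was there at 33.8 ± 6.15 and PTGS2 at 21.2 ± 2.15 CPM. Markers of adipocytes (ADIPOQ, LEP, PLIN1 and CIDEC) summed to no more than 1.15 CPM in any library. Erythroid markers (HBA, HBA1 and ALAS2) summed to 31.1 to 67.2, 10.6 to 17.7 and 17.3 to 23.9 CPM, with control above both other groups. By edgeR HBA (log2 -1.61, adjusted p = 0.00163) and HBA1 (log2 -1.85, adjusted p = 0.0253) fell with microplastics. Against microplastics, HBA rose with taurine (log2 1.09, adjusted p = 0.0186) and HBA1 was not called (0.09). Leukocyte markers summed to 6.86 to 9.09, 4.32 to 6.27 and 4.98 to 6.99 CPM, with PTPRC and CD14 near 0. CD3E made up most of that sum (5.83 ± 1.20 CPM in control) and fell with microplastics to 3.25 ± 0.564 CPM (log2 -0.84, adjusted p = 0.0437). Endothelial and stromal sums overlapped between all groups. The part of these marker changes in the results below was not tested. In bulk RNA fewer cells of a type and less RNA per cell cannot be told apart.

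Levels of different genes were compared on the TPM scale, which divides by transcript length. FABP3, a small cytosolic carrier of fatty acids, had the highest level of the members, at 1623 ± 233 TPM in control (SD, n = 3), above 99.4% of tested genes. ETFA, the alpha subunit of ETF, followed at 413 ± 33.7 TPM. FABP5, another fatty acid carrier, stood at 248 ± 23.6 TPM, and CROT, the peroxisomal carnitine octanoyltransferase, at 218 ± 5.51 TPM. PLIN2, the perilipin that coats lipid droplets in most cells, was at 201 ± 33.3 TPM, and ELOVL5, an elongase of polyunsaturated fatty acids, at 115 ± 27.0 TPM. These 6 were the only members over 100 TPM in control. A further 10 were at 10 to 100 TPM, 18 at 1 to 10 TPM and 13 under 1 TPM. The median of the 44 tested members was 5.13 TPM, beside 4.84 TPM for all tested genes. In the order of levels, only 6 of 46 pairs of neighbours had control libraries that did not overlap: FABP3 over ETFA, ETFA over FABP5, PLIN2 over ELOVL5, ACSL3 over CPT2, ACADM over DGAT2 and DGAT2 over ACAT1.

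Genes of the same step differed widely in level. Of the carnitine palmitoyltransferases, CPT1A was at 2.35 ± 0.836 TPM in control and its muscle form CPT1B at 0.453 ± 0.190 TPM, while CPT2 of the inner membrane was at 29.2 ± 5.04 TPM. ETFB, the partner subunit of ETFA in the ETF dimer, was at 7.21 ± 4.15 TPM. Of the long-chain acyl-CoA synthetases, ACSL3 was at 72.4 ± 13.4 TPM, ACSL1 at 3.23 ± 0.217 and ACSL4 at 2.97 ± 0.506. PLIN3, the other perilipin among the members, was at 0.537 ± 0.309 TPM. FASN (0.177 ± 0.0961 TPM), which makes fatty acids from malonyl-CoA, and SCD (0.377 ± 0.0757 TPM), which desaturates them, were near the lower end.

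A further 3 members had too few reads to be tested. ACOX3, a peroxisomal acyl-CoA oxidase, had 1 to 10 estimated counts in each library. MGLL, the monoglyceride lipase, had 0 to 6, and FADS2, the delta-6 desaturase, had 0 to 7. At this depth no difference could be read for them.

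**Figure D1:**
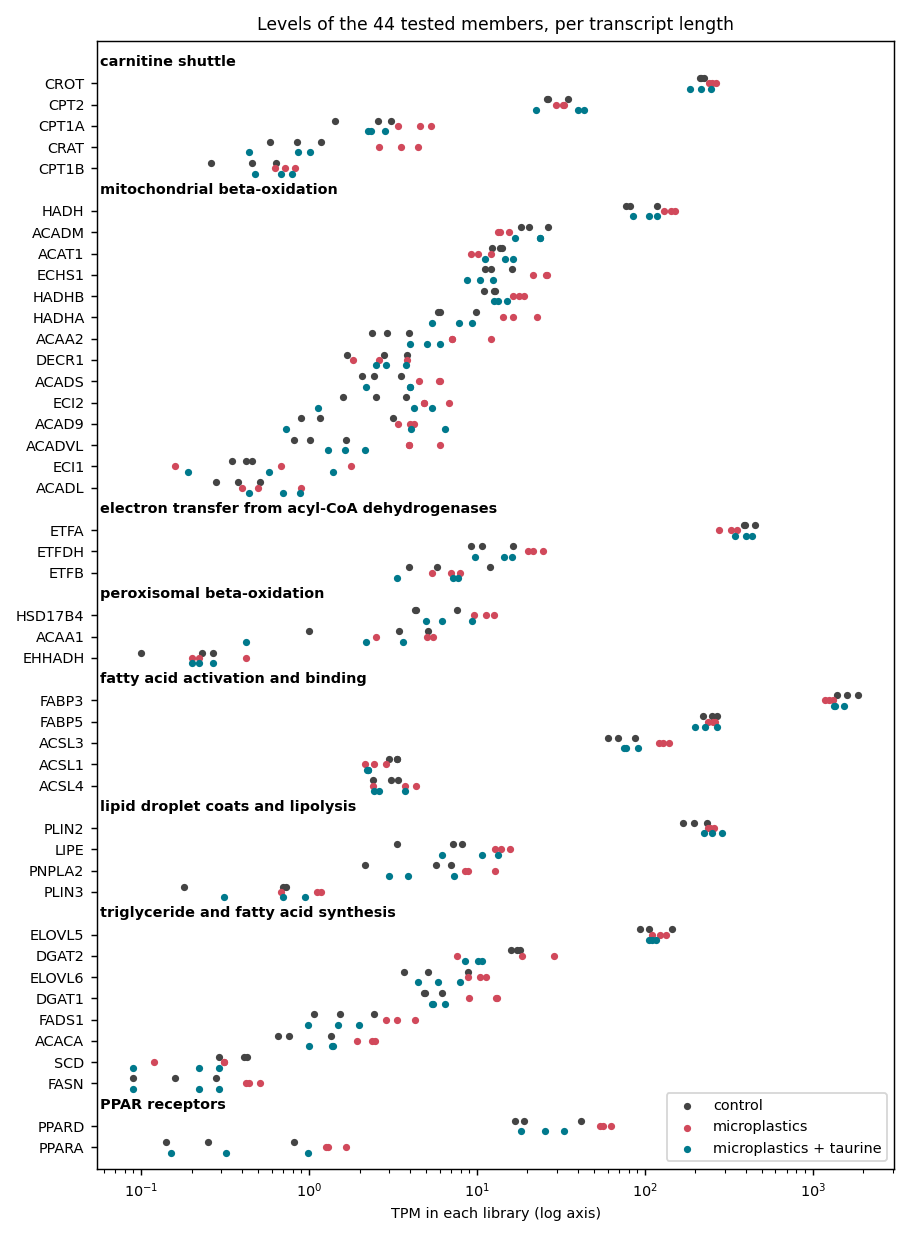
TPM of the 44 tested members in each of the 9 libraries, on a log axis, grouped by role. Each point is 1 library, grey for control, red for microplastics and blue-green for microplastics with taurine. FABP3 stands highest, at a control mean of 1623 TPM, and FASN (0.177) and EHHADH (0.200) lie near the lower end.

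Oocytes exposed to microplastics were first set against control. Of the 44 tested members 7 fell (FABP3, FABP5, ACADM, ACAT1, ETFA, ACSL1 and ELOVL5), 3 rose (CRAT, ACADVL and ACAA2) and 34 did not pass, at an adjusted p under 0.05 by edgeR's quasi-likelihood test. That is 22.7% of the members, and 24.3% of all tested genes were called. Over all genes 14.7% fell and 9.68% rose. The median log2 fold change was 0.23 over the tested members and 0.04 over all tested genes. The share of members called was near that of all genes, so the values are described member by member.

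Scaling moves this split. Scaling by library size only moves the median of all genes to 0.52. Then 14 members were called higher and 3 lower (17 in all, with 37.0% of all genes called). Called higher there but not with TMM were ACSL3, ACACA, ECHS1, HADHA, DGAT1, LIPE, PPARD, HSD17B4, CPT1A, ACADS and ETFDH. The 6 members called in the same direction under both scalings were ACADM, ETFA and FABP3, which fell, and CRAT, ACADVL and ACAA2, which rose. The other 4 falls were not called with library size only: log2 values were then -0.48 for ACAT1 and -0.51 for ACSL1, but -0.10 for FABP5 and -0.03 for ELOVL5. On the TPM scale FABP5 was at 248 ± 23.6 in control and 252 ± 12.6 with microplastics, and ELOVL5 at 115 ± 27.0 and 123 ± 11. ACAT1 was at 13.5 ± 1.0 and 10.5 ± 1.53 TPM, and ACSL1 at 3.23 ± 0.217 and 2.49 ± 0.368 TPM.

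Within the beta-oxidation cycle, 2 dehydrogenases of different chain length moved apart. ACADM (gene ID 505968), the medium-chain acyl-CoA dehydrogenase, was at 39.2, 54.7 and 35.3 CPM in control 1 to 3, at 17.5, 20.8 and 16.7 with microplastics and at 42.2, 30.4 and 47.8 with taurine. Each microplastics library lay below every library of the other groups. ACADM fell with microplastics from 43.0 ± 10.3 to 18.3 ± 2.20 CPM (SD, n = 3), a log2 fold change of -1.23 ± 0.23 (SE; adjusted p = 0.00301).

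ACADVL (gene ID 282130), the very-long-chain acyl-CoA dehydrogenase of the inner membrane, was at 1.74, 2.11 and 2.86 CPM in control. With microplastics it was at 7.73, 5.33 and 4.93, and with taurine at 2.33, 3.96 and 3.34 CPM. All microplastics libraries lay above the others. The rise was from 2.24 ± 0.569 to 6.00 ± 1.52 CPM (log2 1.42 ± 0.33, adjusted p = 0.00975). The calls of ACADM and ACADVL were kept with each of the 9 libraries left out in turn. The other dehydrogenases ACADS (log2 0.46), ACADL (0.01) and ACAD9 (0.55) did not pass, and ACADL was under 1 CPM in every control and microplastics library.

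Of the thiolases, ACAT1 and ACAA2 also moved apart. ACAT1 (gene ID 511082), the mitochondrial acetoacetyl-CoA thiolase, was at 21.3, 19.9 and 14.8 CPM in control, at 10.9, 8.66 and 8.75 with microplastics and at 13.9, 20.7 and 20.7 with taurine. The microplastics libraries were again the lowest, and ACAT1 fell by 0.98 on the log2 scale (SE 0.24, adjusted p = 0.0128). When control 1 (-0.88), microplastics 2 (-0.91) or microplastics 3 (-0.91) was omitted, it missed the threshold. ACAA2 (gene ID 522006), a thiolase of longer chains, was at 4.47, 3.49 and 4.86 CPM in control, at 6.49, 6.78 and 10.7 with microplastics and at 7.70, 6.51 and 5.69 with taurine. All control libraries were the lowest, and taurine overlapped microplastics. It rose by log2 0.90 ± 0.28 (adjusted p = 0.0362), and missed the threshold when control 1 (0.94), control 2 (0.78), microplastics 2 (1.02), microplastics 3 (0.65) or taurine 2 (0.90) was omitted.

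HADHA and HADHB, the alpha and beta subunits of the trifunctional protein of long-chain oxidation, gave different values. HADHA was at 15.7, 15.6 and 21.4 CPM in control and at 26.4, 24.2 and 35.7 with microplastics, which did not overlap, but it missed the threshold (log2 0.71 ± 0.24, adjusted p = 0.0506). DESeq2's Wald test and limma-voom called HADHA higher, and ACACA as well. HADHB was at 24.5, 27.0 and 23.1 against 23.6, 26.5 and 20.9 CPM (log2 -0.07 ± 0.20). The difference between the subunits was not tested. HADH, the short-chain hydroxyacyl-CoA dehydrogenase, stood at 145 ± 16.6 CPM in control and 148 ± 5.27 with microplastics. On the TPM scale the microplastics libraries of HADHA, HADHB and HADH alike lay above control. They were at 14.3 to 22.9, 16.3 to 19 and 130.3 to 152 TPM, against 5.85 to 9.91, 11 to 12.9 and 77.5 to 118. ECHS1, ECI1, ECI2 and DECR1, the hydratase and the auxiliary enzymes for unsaturated chains, had fold changes of log2 -0.64 to 0.48 and did not pass.

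Electron transfer from these dehydrogenases uses ETFA and ETFB as a dimer and ETFDH, which hands electrons to ubiquinone. ETFA (gene ID 521892) was at 589.7, 498 and 408 CPM in control, at 214, 265 and 268 with microplastics and at 376, 444 and 534 with taurine. The microplastics libraries lay below all others. The mean of ETFA with microplastics was 249 ± 30.4 CPM, down from 499 ± 90.6 in control (log2 -1.0 ± 0.19, adjusted p = 0.00328). This call was kept in all 9 fits that left out a library. ETFB was at 8.28, 2.64 and 3.24 against 3.32, 2.36 and 2.84 CPM and did not pass (log2 -0.73 ± 0.44), with control 1 high. ETFDH did not pass either (24.9 ± 4.64 and 30.0 ± 2.01 CPM).

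**Figure D2:**
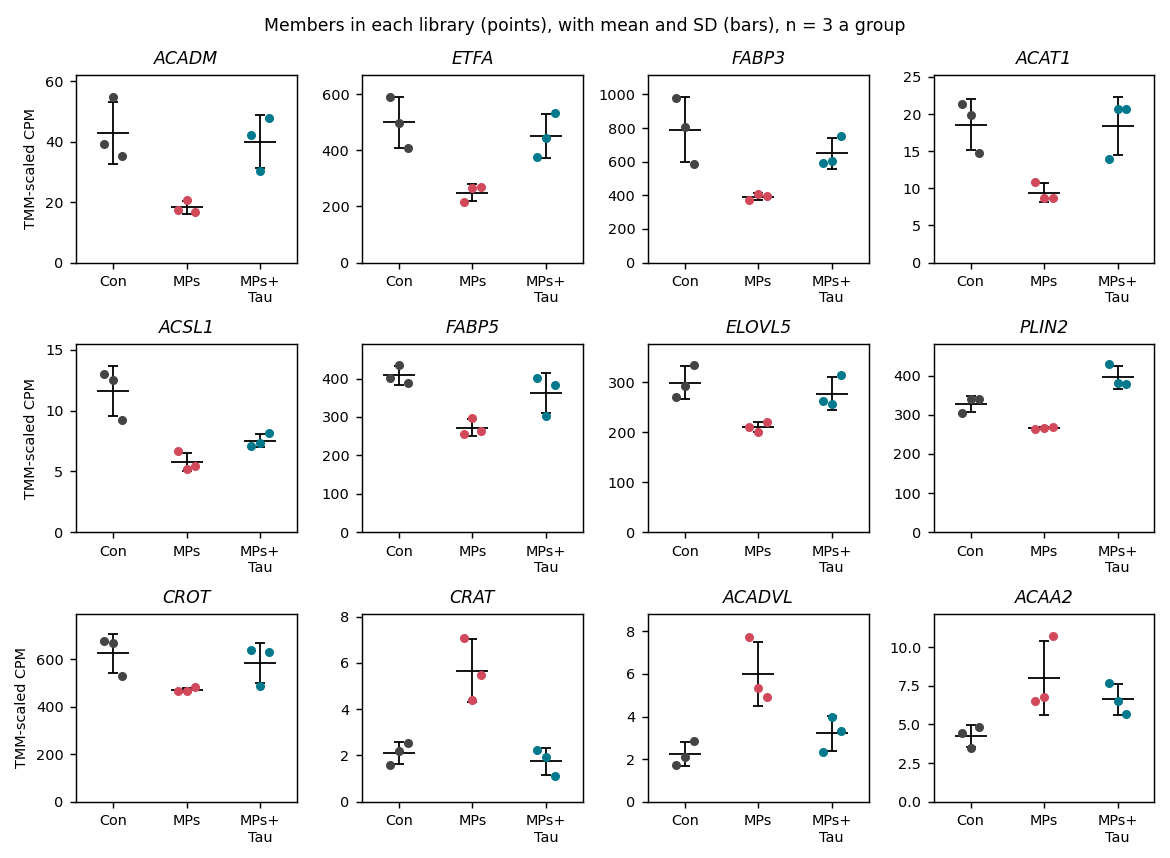
TMM-scaled CPM of the members called in a comparison, and of CROT, in control (Con), microplastics (MPs) and microplastics with taurine (MPs+Tau). Points are libraries, and bars are the mean and SD of 3. The microplastics libraries of ACADM (16.7 to 20.8 CPM) lie below all others, and those of CRAT (4.38 to 7.09 CPM) above.

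In the carnitine shuttle CRAT (gene ID 512902), the carnitine acetyltransferase, was the member called. It was at 1.58, 2.17 and 2.53 CPM in control, at 7.09, 4.38 and 5.46 with microplastics and at 2.23, 1.93 and 1.09 with taurine. Each microplastics library lay above all others. The rise was log2 1.43 ± 0.35 (adjusted p = 0.0125), no longer called when control 1 (1.26) or microplastics 1 (1.25) was omitted. In the RefSeq assembly ARS-UCD2.0 the span of CRAT overlaps that of PTPA by 663 bases, and since the counting is not stated to use strand, reads of the overlap cannot be told apart. The same holds for ECHS1 with SORCS3, DGAT1 with HSF1, ACACA with C19H17orf78 and FADS1 with FADS2.

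CROT was at 677, 669 and 531 CPM in control and at 466, 468 and 482 with microplastics. The groups did not overlap, and the change of log2 -0.41 ± 0.16 did not pass (adjusted p = 0.0899). It was called without control 3 (-0.50) and, at -0.57, after removal of a trend on transcript length. With library size only its log2 value was 0.09. On the TPM scale the microplastics libraries of CROT (239.8 to 267) lay above those of control (213 to 224). CPT2 was at 65.6 ± 15.4 and 46.4 ± 4.61 CPM (log2 -0.50, not called), CPT1A at 10.2 ± 2.86 and 12.7 ± 2.32, and CPT1B at 1.29 ± 0.557 and 1.35 ± 0.231.

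Of the 5 tested members of fatty acid binding and activation 3 were called lower, beside 14.7% of all genes, and with library size only FABP3 alone of these was called. FABP3 (gene ID 281758) was at 976, 809 and 587 CPM in control, at 369.9, 409.9 and 395 with microplastics and at 589.6, 604 and 754 with taurine. Its microplastics libraries were the lowest, while control ranged widely, with control 3 beside taurine 1. The fall was from 790.5 ± 195 to 392 ± 20.2 CPM (log2 -1.01 ± 0.19, adjusted p = 0.00339). It was kept in all 9 fits that left out a library, and its size was -0.53 (adjusted p = 0.0349) after removal of the length trend.

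FABP5 (gene ID 281760) was at 400.5, 436 and 388 CPM in control, 255, 296 and 264 with microplastics and 401, 302 and 383 with taurine. The microplastics libraries were the lowest, with 1 taurine library close to them. It fell by 0.59 on the log2 scale (SE 0.16, adjusted p = 0.0195), and missed the threshold on omitting control 1 (-0.60), control 2 (-0.54), microplastics 1 (-0.53) or microplastics 3 (-0.55). FABP5 has processed copies in other mammals, and whether reads of such copies enter its counts here was not tested. In ARS-UCD2.0 its span overlaps that of a long noncoding RNA gene by 1467 bases.

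ACSL1 (gene ID 537161), an acyl-CoA synthetase linked to both oxidation and triglyceride storage, was at 13.0, 12.5 and 9.25 CPM in control, 6.64, 5.22 and 5.46 with microplastics and 7.13, 7.33 and 8.15 with taurine. On this scale the taurine libraries lay between the other groups without overlap. On the TPM scale they (2.22 to 2.25) lay within the microplastics range (2.15 to 2.88). The fall with microplastics was log2 -1.0 ± 0.24 (adjusted p = 0.01) and was kept in all 9 fits that left out a library. ACSL3, the synthetase found on lipid droplets and endoplasmic reticulum, was at 181, 198 and 208 CPM in control and 228, 226 and 241 with microplastics. It did not pass (log2 0.24 ± 0.15) but was called at log2 0.72 (adjusted p = 0.00617) with library size only. ACSL4, which prefers arachidonate, did not pass (log2 -0.36 ± 0.27). Its leading transcript held 59.9% of the gene's counts in control, 78.5% in microplastics and 77.9% in taurine libraries, and another transcript held 12.9%, 0% and 0%. These shares rest on estimated assignment between transcripts.

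None of the 4 tested members of lipid droplet coats and lipolysis was called by edgeR in this comparison, at an adjusted or an unadjusted p under 0.05, or by DESeq2 or limma-voom, while LIPE was called higher with library size only. PLIN2 (gene ID 280981) was at 305, 340.2 and 340 CPM in control and 263, 267 and 268 with microplastics (log2 -0.30 ± 0.14, adjusted p = 0.132), and the sign turned to 0.17 with library size only. The lipases PNPLA2, which starts triglyceride breakdown, and LIPE, the hormone-sensitive lipase, had fold changes of log2 0.44 ± 0.41 and 0.60 ± 0.30. PLIN3 was near 1 CPM in both groups.

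In lipid synthesis ELOVL5 (gene ID 617293) was called. It was at 270.1, 292 and 335 CPM in control, 211, 199.5 and 220.5 with microplastics and 262, 256 and 315 with taurine, with the microplastics libraries the lowest. The fall was log2 -0.51 ± 0.16 (adjusted p = 0.0343), and the call was lost without any single control (-0.57 to -0.40) or microplastics library (-0.53 to -0.46), and without the filter (-0.50). ACACA, the acetyl-CoA carboxylase that commits carbon to fatty acids, was at 5.23, 5.87 and 8.72 CPM in control and 9.24, 12 and 11.4 with microplastics, which did not overlap (log2 0.72 ± 0.26, adjusted p = 0.0589). FASN (log2 0.83 ± 0.45), DGAT1 (0.52 ± 0.26), DGAT2 (-0.52 ± 0.37), SCD (-1.19 ± 0.52), ELOVL6 (0.22 ± 0.28) and FADS1 (0.49 ± 0.31) did not pass. DGAT2, which makes triglyceride, ranged from 11.2 to 43.7 CPM within the microplastics group.

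The peroxisomal members ACAA1, HSD17B4 and EHHADH had fold changes of log2 -0.19 to 0.47 and did not pass. The nuclear receptors PPARA and PPARD, which bind fatty acids and act on genes of their oxidation, did not pass either. PPARD was at 56.5, 61 and 111 CPM in control and 108, 119 and 121 with microplastics, so that only control 3 reached the microplastics range. PPARA was at 0.490, 0.264 and 1.29 against 1.96, 1.59 and 1.45 CPM.

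**Figure D3:**
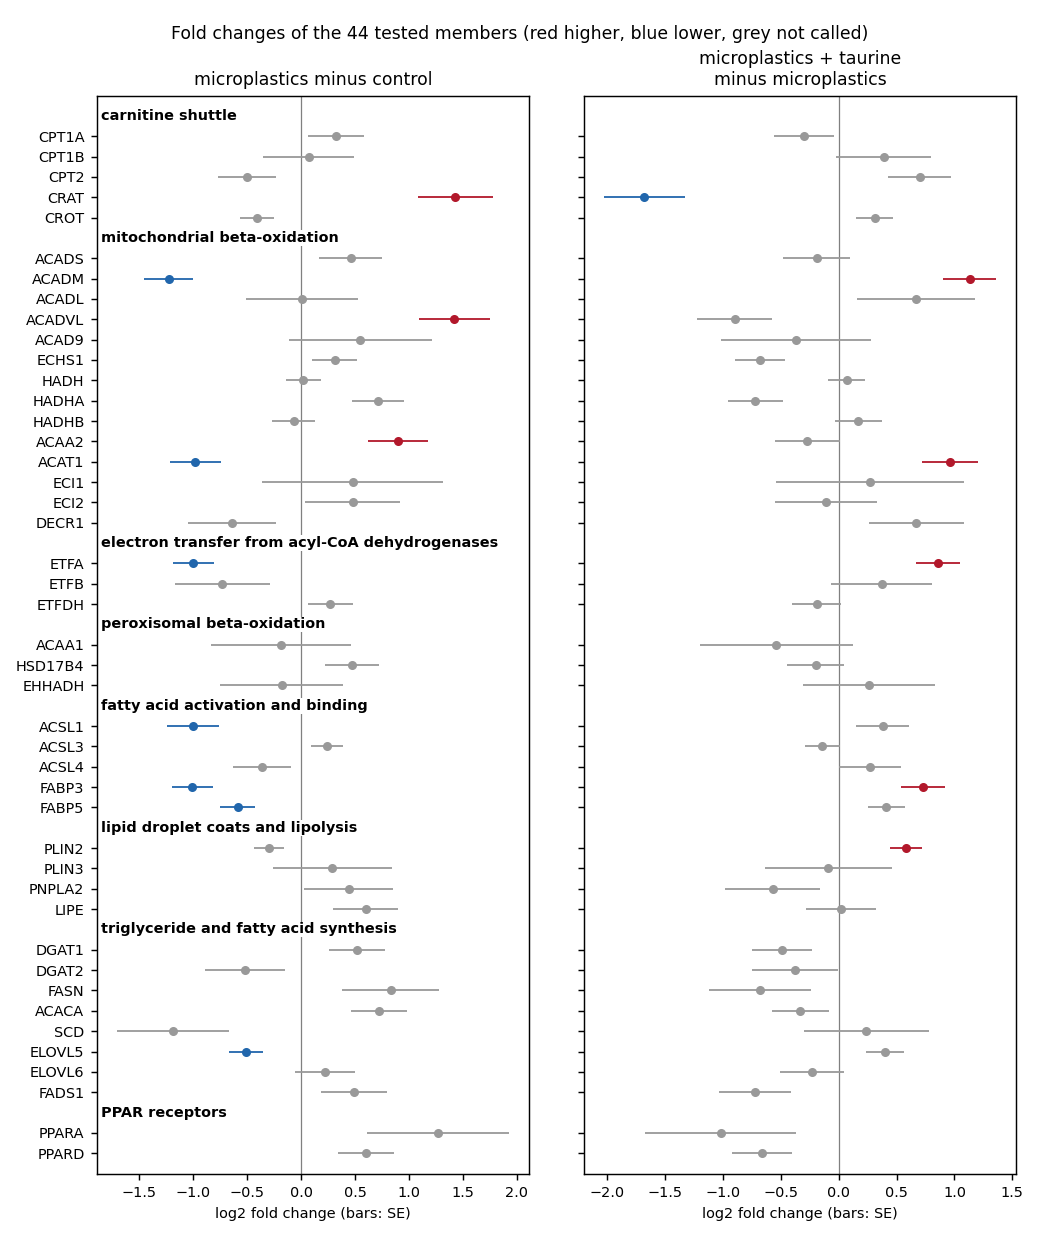
Log2 fold changes of the 44 tested members with SE bars, for microplastics minus control (left) and microplastics with taurine minus microplastics (right), which share the microplastics libraries. Red points were called higher, blue lower, and grey were not called: 3 red and 7 blue on the left, 5 red and 1 blue on the right.

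Leaving out control 3 and taurine 3 together raised the count of called members to 17, 10 higher and 7 lower, with 38.1% of all genes called. FASN (log2 1.22), ACACA (0.99), HADHA (0.89), PPARA (2.15), PPARD (1.00), HSD17B4 (0.68) and ACAD9 (1.50) were then higher and CROT (-0.50) lower, while ELOVL5 (-0.40) was no longer called. With control 1 left out alone 5 members were called, and with microplastics 3 left out 6 were called, against 12.7% and 13.0% of all genes.

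**Figure D4:**
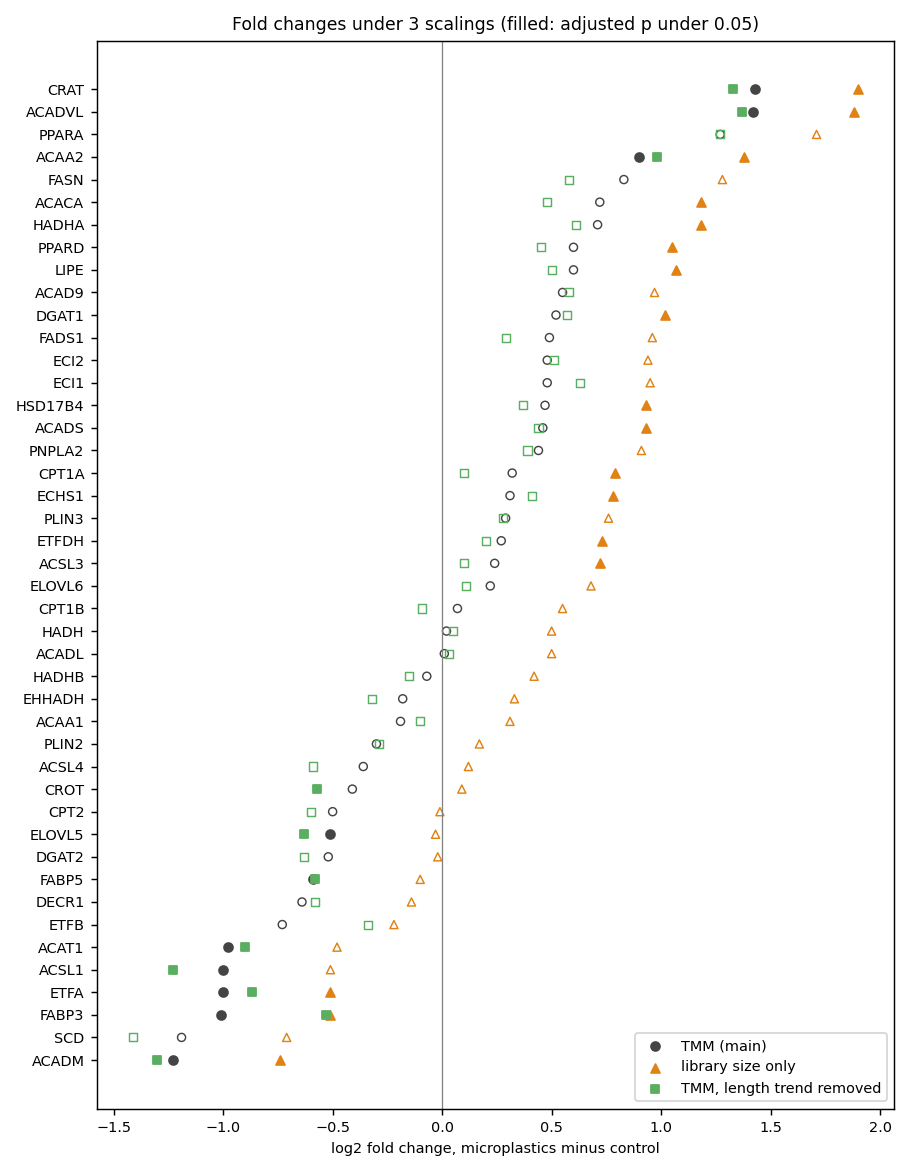
Log2 fold change of each tested member for microplastics minus control with TMM (circles), with library size only (triangles) and with TMM after removal of a trend on transcript length (squares), and filled where the adjusted p was under 0.05. Triangles lie to the right of circles for every member, and ACADM, ETFA, FABP3, CRAT, ACADVL and ACAA2 are filled in all 3 series.

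Transcript length went with fold change across all genes. The median log2 fold change was -0.35 in the shortest of 5 length classes, with a median length of 755 nt, and 0.26 in the longest, at 5096 nt. FABP3, at an implied length of 466 nt, was 1 of 3 members in the shortest class, and the 5 members of the longest class held 0 calls by edgeR. After removal of the length trend in each library 11 members were called, 3 higher and 8 lower, including all 10 of the uncorrected fit.

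Taurine with microplastics was then set against microplastics alone. Of the 44 tested members 5 rose (ACADM, ACAT1, ETFA, FABP3 and PLIN2), 1 fell (CRAT) and 38 did not pass. That is 13.6% of members, beside 14.2% of all tested genes, of which 10.1% rose and 4.13% fell. The median log2 fold change was -0.10 over the members and -0.02 over all tested genes. This comparison shares its microplastics libraries with the first, so opposite signs in the pair are not independent.

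ACADM rose from 18.3 ± 2.20 to 40.1 ± 8.86 CPM (log2 1.13 ± 0.23, adjusted p = 0.00712). The call was kept with each library left out and with library size only. CRAT fell from 5.65 ± 1.36 to 1.75 ± 0.590 CPM (log2 -1.68 ± 0.35, adjusted p = 0.00848), also kept in all of these. ETFA rose from 249 ± 30.4 to 451 ± 79.3 CPM (log2 0.86 ± 0.19, adjusted p = 0.0111), a call lost without microplastics 1 (0.74) and with library size only (0.42). These are the acyl-CoA dehydrogenase of medium chains, the carnitine acetyltransferase and the alpha subunit of ETF. ETFB, the partner subunit, was not called (log2 0.37 ± 0.44).

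ACAT1 rose from 9.44 ± 1.27 to 18.4 ± 3.92 CPM (log2 0.96 ± 0.24, adjusted p = 0.0206). The call was lost without microplastics 2 (0.89), microplastics 3 (0.89), taurine 2 (0.87) or taurine 3 (0.87), and with library size only (0.52). FABP3 rose from 392 ± 20.2 to 649 ± 91.0 CPM (log2 0.73 ± 0.19, adjusted p = 0.0264). That call was lost without any single microplastics library (0.67 to 0.75), without taurine 2 (0.78) or taurine 3 (0.61), with library size only (0.29) and after removal of the length trend (0.39).

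PLIN2 was the lipid droplet gene called in this comparison. It was at 263, 267 and 268 CPM with microplastics and at 429, 381 and 379 with taurine, and all taurine libraries also lay above the control libraries, which reached 340.2 CPM. The rise was log2 0.58 ± 0.14 (adjusted p = 0.0180). It was lost without any single microplastics library (0.55 to 0.56) and with library size only (0.15). PLIN2 was not called for taurine against control by edgeR (log2 0.27 ± 0.14, adjusted p = 0.855). On the TPM scale PLIN2 was at 201 ± 33.3 in control, 247 ± 10.4 with microplastics and 255 ± 31.4 with taurine. There the taurine libraries (225 to 288) overlapped control (169.9 to 236), and the microplastics libraries (237 to 258) lay above control.

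Members that missed the threshold included ECHS1 (21 ± 2.41 to 13.1 ± 2.48 CPM, log2 -0.68 ± 0.22, adjusted p = 0.0561), HADHA (log2 -0.72 ± 0.24, adjusted p = 0.0688) and ACADVL (log2 -0.90 ± 0.32, adjusted p = 0.0845). The Wald test of DESeq2 called all 3 of these lower. FABP5 (log2 0.41), ELOVL5 (0.40), ACSL1 (0.38) and ACAA2 (-0.27), called with microplastics, did not pass here. Whether their response to taurine differed from that of the called members was not tested. With library size only 9 members were called, 1 higher (ACADM) and 8 lower (ACSL3, ECHS1, HADHA, ACADVL, DGAT1, PPARD, CRAT and FADS1), while the median of all genes moved to -0.45 and 601 genes were called higher and 2488 lower in all. Without control 3 and taurine 3 the same number, 6, was called, 5 higher and 1 lower, beside 13.2% of all genes. With any single microplastics library left out 3 members were called, 2 higher and 1 lower, beside 6.61%, 7.52% and 7.21% of all genes without microplastics 1, 2 and 3.

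The third comparison set oocytes given microplastics and taurine against control. By edgeR 0 of 44 tested members were called, beside 0.00757% of all tested genes, which is 1 gene. At an unadjusted p under 0.05 there were 3 members: ACAA2 (log2 0.63), ACSL1 (-0.62) and DGAT2 (-0.90, at 40.3 ± 6.75 CPM in control and 21.6 ± 1.14 with taurine). DESeq2 and limma-voom also called 0 members. Fold changes of all tested members lay between log2 -0.95 and 0.74.

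This comparison depends on the libraries that stood apart. Without control 3 and taurine 3 the share of all genes called was 5.83%, and 1 member was called, ACAD9, an acyl-CoA dehydrogenase that is also an assembly factor of complex I (log2 1.61, adjusted p = 0.0445). ACAD9 was at 0.817, 1.27 and 3.91 CPM in control and at 3.61, 2.75 and 0.438 with taurine, so control 3 was high and taurine 3 low. PPARD in the same libraries was at 111 and 57.5 CPM, with 56.5 and 61 in control 1 and 2 and 91.0 and 71.5 in taurine 1 and 2.

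Other genes of these pathways were taken from lists that hold no member. Of 26 tested genes of fatty acid oxidation 5 fell and 1 rose with microplastics, and 4 rose and 0 fell with taurine by edgeR (7 at an unadjusted p under 0.05 in either direction). The shares called were 23.1% and 15.4%, near the 24.3% and 14.2% of all tested genes. ACOT9, a mitochondrial acyl-CoA thioesterase, had means of 126 ± 15.5 (control), 42.8 ± 14.6 (microplastics) and 156 ± 19.5 CPM (taurine), and AUH, a hydratase of leucine breakdown, at 11.9 ± 1.75, 4.54 ± 0.824 and 12.5 ± 2.40 CPM.

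Of 22 tested lipid droplet and lipolysis genes 3 fell and 1 rose with microplastics, and 0 were called with taurine by edgeR (5 at an unadjusted p under 0.05). The share called with microplastics was 18.2%, beside 24.3% of all tested genes. SOAT1, which makes cholesteryl esters for storage, fell from 437 ± 46.3 to 221 ± 15.2 CPM (log2 -0.98, adjusted p = 0.00543). HILPDA, an inhibitor of PNPLA2, fell from 12 ± 2.44 to 5.10 ± 0.658 CPM (log2 -1.24, adjusted p = 0.00506). SLC27A3, of the fatty acid transport family, rose from 0.252 ± 0.137 to 1.45 ± 0.395 CPM, not called when control 1 (2.14), control 2 (2.51), microplastics 1 (2.47) or microplastics 2 (2.30) was omitted. Of 32 tested lipid synthesis genes 3 fell and 5 rose with microplastics, and 1 rose and 0 fell with taurine by edgeR (6 at an unadjusted p under 0.05). These were 25% and 3.12% of the list, beside 24.3% and 14.2% of all tested genes. HACD4, a dehydratase of fatty acid elongation, was at 201 ± 36.2, 61.2 ± 12.2 and 158 ± 14.6 CPM in control, microplastics and taurine. LPIN2, a phosphatidate phosphatase, rose with microplastics from 85.9 ± 23.3 to 181 ± 14.2 CPM, and AGPAT3, an acyltransferase of phosphatidate synthesis, from 5.95 ± 1.72 to 12.9 ± 0.777 CPM.

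Of 22 tested transcription regulators of lipid metabolism 2 fell and 2 rose with microplastics, and 2 rose and 1 fell with taurine. The shares called were 18.2% and 13.6%, beside 24.3% and 14.2% of all tested genes. SREBF2, the factor that acts on sterol synthesis genes, fell from 53.0 ± 8.30 to 14.3 ± 1.52 CPM (log2 -1.89 ± 0.20, adjusted p = 9.28e-05). With taurine it rose to 52.2 ± 8.78 CPM (log2 1.87, adjusted p = 0.000162). PPARG, the receptor known for fat storage, fell from 60.4 ± 7.38 to 21.6 ± 7.28 CPM (log2 -1.48 ± 0.26, adjusted p = 0.00183). With taurine it rose to 59.5 ± 10.4 CPM (log2 1.46, adjusted p = 0.00293). Both kept these calls under every alternative run. SCAP, the escort protein of the SREBP factors, rose from 13.5 ± 1.74 to 23.1 ± 1.68 CPM (log2 0.77), not called when control 1 (0.67), microplastics 1 (0.75) or microplastics 2 (0.76) was omitted, or after removal of the length trend (0.55). These lists were compiled with earlier results of these data known, so their counts describe these libraries and are read beside the shares of all genes given above.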

How the data were processed

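For 22590 transcripts the authors deposited an estimated count, a TPM and an FPKM per library. Counts were not whole in 20.9% to 24.0% of rows. The deposited scaled count signal and group means were not used. Aligner, counter and genome build: not given in the sources used here. Symbols of 16995 of 17852 genes (95.2%) came from RefSeq (ARS-UCD2.0) by gene ID. Estimated counts were summed per gene, rounded and tested with edgeR 4.0.16 in R 4.3.3: TMM, minimum count 10, minimum total 15, robust quasi-likelihood fit, all 9 libraries with 1 coefficient for each group, and p-values adjusted over 13206 genes by Benjamini-Hochberg. The procedure was also run on simulated counts. These were not built to hold the shift in TMM factors seen here, so that run cannot speak to the scaling. TPM served for levels, and FPKM for the transcript length implied by counts, used in a lowess trend (span 0.3). Floors reflect counting only, while SD and SE also take in the spread between libraries. Alternatives used DESeq2 1.42.0 and limma 3.58.1. Members called in either of the first comparisons were named with every library. Of other lists, up to 2 rising and 2 falling genes were named. The members and lists were chosen with earlier results of these data known. Planned promoter searches were not run, since no sequences were used here. The values of 1 gene of a pathway list are not reported here.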

Additional observations from a re-analysis of the deposited data

How the results depend on the processing

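Called members with microplastics were 10, and 17 with library size only or without control 3 and taurine 3 together; leaving out 1 library gave 5 to 14. With taurine against microplastics they were 6, and 3 to 8 with 1 library left out. Against control, 0 became 1 without control 3 and taurine 3. With library size only, log2 changes with microplastics turned to 0.09 for CROT and 0.17 for PLIN2, and those with taurine to -0.13 for CROT, -0.05 for ACSL1, -0.02 for FABP5 and -0.04 for ELOVL5. Other uncalled members changed sign too: with microplastics HADHB (0.42), ACAA1 (0.31), EHHADH (0.33) and ACSL4 (0.12), and with taurine CPT1B (-0.05), HADH (-0.36), HADHB (-0.28), ECI1 (-0.19), ETFB (-0.05), EHHADH (-0.18), ACSL4 (-0.15), LIPE (-0.39) and SCD (-0.21). The median over members with taurine against microplastics ranged from -0.19 to 0.02 with 1 library left out, the latter without taurine 3, and was 0.01 without control 3 and taurine 3. That of taurine against control was -0.01 after length-trend removal and -0.04 to 0.09 with 1 library left out, the former without taurine 2. Of the scalings, library size only turned the split of all calls with microplastics from 1278 higher and 1935 lower to 4004 and 876. The replicate numbers did not pair the libraries: 2 of 9 same-numbered pairs had correlated deviations over 0.1, and 1 of 9 libraries correlated best with its own number. With a replicate block, 9 members were called with microplastics, 4 with taurine and 0 against control. ACAA2 (0.90), ACAT1 with taurine (0.97) and FABP3 with taurine (0.73) then lost their calls. Depth limits ACOX3, MGLL and FADS2. Causes were not tested.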
